A study of Mus musculus with 10 samples.

Results

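Respiratory complex I genes were taken as the non-control array features whose gene name began with Nduf, which gave 52 probes of 37 genes among the 15805 genes tested. They comprised the 7 core subunits encoded in the nucleus, 28 accessory subunits, the assembly factor Ndufaf1, and Ndufa4, a subunit now placed in complex IV. All 37 genes were well above background on all 10 arrays. Their probes lay on 15 chromosomes.

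Livers of 1-year-old C57BL/6 mice were profiled on Agilent mouse expression arrays with Cy3-labelled RNA, with 5 arrays for wild-type mice (WT1 to WT5) and 5 for mice lacking the nuclear orphan receptor TAK1/TR4 (KO1 to KO5), encoded by Nr2c2. Diet, sex and treatment are not given in the sources used here, nor is the part of Nr2c2 that was removed or the cells it was removed from. Nothing in the labels says whether the 5 samples of a group came from 5 mice. P-values therefore measure only the spread between these samples, which may be technical.

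Complex I is the largest enzyme of the respiratory chain. It takes electrons from NADH in the mitochondrial matrix, passes them through iron-sulfur clusters along its matrix arm to ubiquinone, and pumps protons through its membrane arm. The core subunits carry out these reactions, the accessory subunits surround and stabilise them, and assembly factors join the modules but are absent from the finished enzyme. TAK1/TR4 binds direct repeats of the hexamer AGGTCA and has been tied to lipid metabolism in liver.

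The arrays differed in the 75th percentile of processed signal from 950.3 to 1344, and 51.6 to 62.9% of spots were well above background. WT1 to WT4 shared slide 1, WT5 and KO1 to KO3 shared slide 2, KO5 lay on slide 3, and KO4 lay on slide 4, which was scanned on a later day. Slide 2 was thus the only slide with both groups, and WT5 was its single wild-type array. Genotype and slide therefore cannot be fully told apart. A fixed slide term and a fit within slide 2 both compare WT5 with KO1 to KO3. All 17 hepatocyte markers tested, of 18 listed, were well above background on all arrays. The cDNA probe AK039370, which the files place on chromosome 6 from 92237812 to 92237871 (mm7), between both probes named Nr2c2, was well above background on 5 wild-type arrays and 0 knockout arrays and was at least 5.25-fold lower in knockout (limma adjusted p = 2.1e-04 over probes). The probes named Nr2c2 were 0.44 ± 0.11 and 0.36 ± 0.13 higher in knockout on the log2 scale (standard error; limma adjusted p = 0.0427 and 0.144 over probes), and whether they lie in the deleted part is not given. Array KO2 stood apart from the other knockout arrays for the complex I genes, and values without it are therefore given beside the results.

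Most complex I genes had a small negative difference between knockout and wild type, and few passed the test. The log2 difference, knockout minus wild type, was negative for 33 of 37 genes and positive for 4, with a median of -0.12, whereas 48.1% of all tested genes had a negative difference and the median over all tested genes was 0.01. Ndufb7 and Ndufb3 fell, at an adjusted p under 0.05 in limma's test across all genes, and 0 genes rose. The 2 genes that fell make up 5.41% of the members, while 3.49% of all tested genes fell and 2.44% rose. At an unadjusted p under 0.05 there were 6 of 37 members, or 16.2%, all of them lower, whereas 23.7% of all tested genes passed that level in either direction. The share of members called was thus near the background. All 37 genes lay within a narrow range, from -0.41 for Ndufb7 to 0.17 for Ndufs8, and the median standard error was 0.08 for the members and 0.12 for all tested genes. RNA of whole liver was measured, in which fewer cells of a type and less RNA per cell cannot be told apart.

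**Figure D1:**
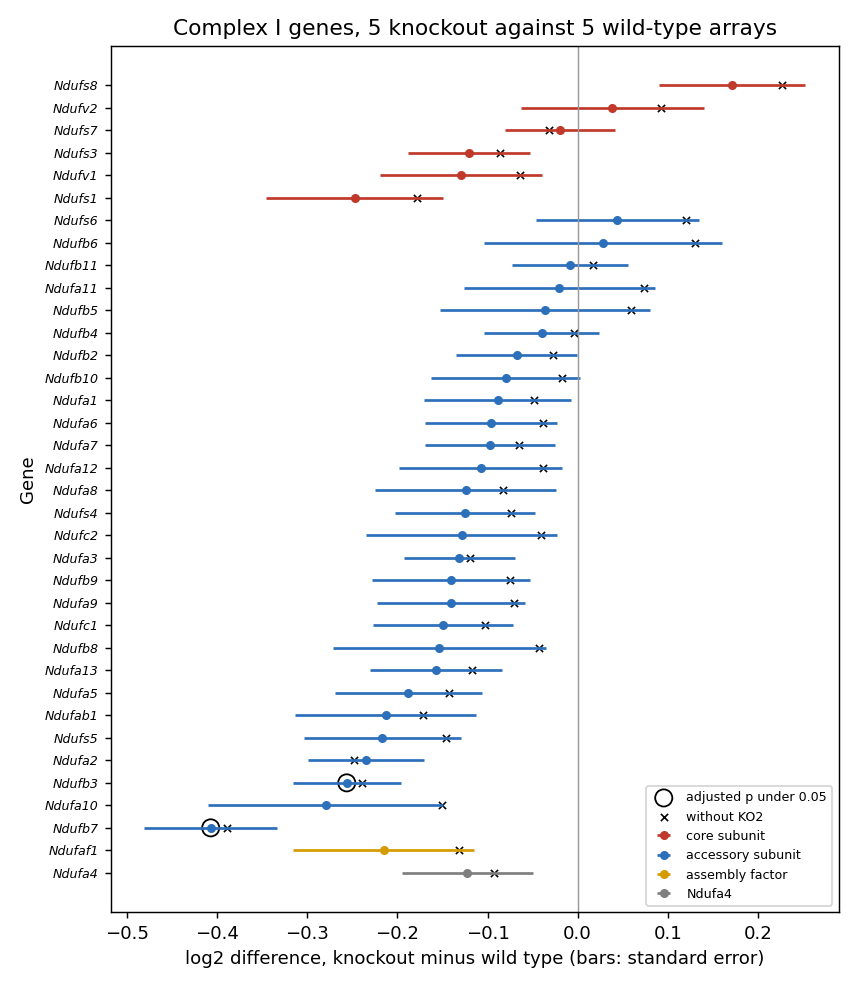
Log2 difference, knockout minus wild type, of complex I genes with its standard error (bars), grouped by role, for all members but 1. Points lie from -0.41 (Ndufb7) to 0.17 (Ndufs8), most of them left of 0, circles mark Ndufb7 and Ndufb3 (adjusted p under 0.05), and crosses give the difference without array KO2.

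Of the 10 arrays left out in turn, KO2 moved the members' median most. With each gene set relative to its own mean over the 10 arrays, the median over the 37 genes was 0.03 on WT1, 0.09 on WT2, 0.04 on WT3, 0.06 on WT4 and 0.09 on WT5. The same median was 0.03 on KO1, -0.27 on KO2, 0.04 on KO3, -0.04 on KO4 and -0.03 on KO5. KO2, KO4 and KO5 thus lay below every wild-type array, KO1 and KO3 lay among them, and KO2 lay far below the rest. The median over all tested genes was -0.03 on KO2. KO2 was the lowest of all 10 arrays for 29 of 37 members, or 78.4%, against 25.6% of all tested genes.

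Without KO2 the members' median difference was -0.06, with 30 genes negative and 7 positive, and Ndufb7 and Ndufb3 still passed the test, where 3.89% of all tested genes were called lower. The number of members below all 5 wild-type arrays was 34 on KO2, 22 on KO4, 19 on KO5, 11 on KO1 and 9 on KO3. For all tested genes that share was 36.4% on KO2, 29.3% on KO4, 26.2% on KO5, 26.0% on KO1 and 25.4% on KO3. Members on KO1 and KO3, at 29.7% and 24.3%, were therefore near that background. The members' standard deviation was larger in knockout than in wild type for 37 of 37 genes, against 78.5% of all tested genes, and for 24 of 37 without KO2, against 67.7%. The median standard deviation over members was 0.07 in wild type and 0.14 in knockout, and 0.09 in knockout without KO2.

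**Figure D2:**
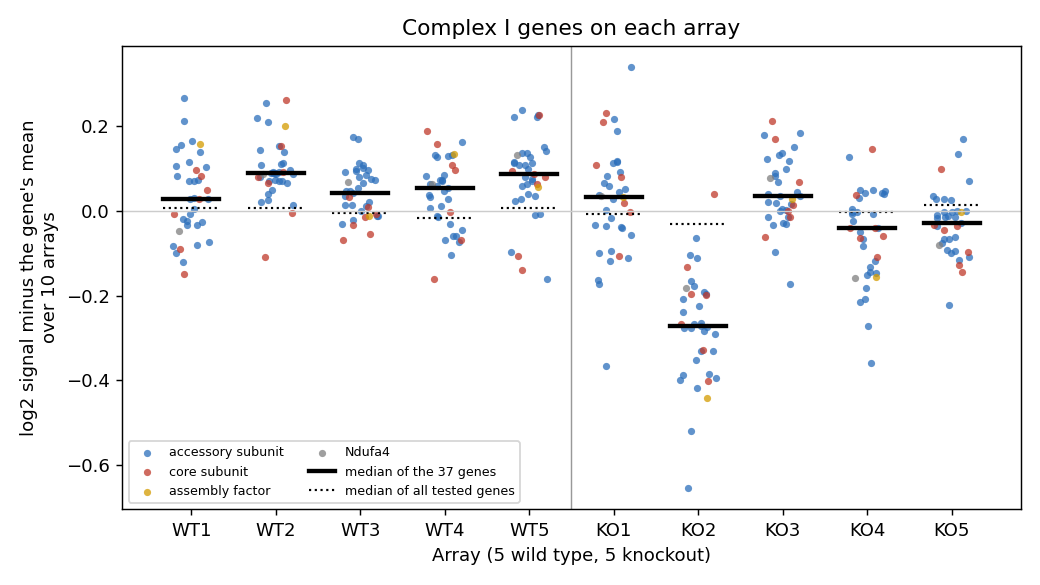
Log2 signal of each complex I gene minus its mean over all 10 arrays, by array, with points coloured by role. Solid bars give the median of the 37 genes, which is -0.27 on KO2 and from -0.04 to 0.09 on the other 9 arrays, and dotted bars give the median of all tested genes.

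Some other values on KO2 also lay at an extreme of the arrays. The sum of linear signals of the 37 genes, relative to each array's 75th percentile, was 1559 on KO2, where wild-type arrays ran from 1904 to 2022 and the highest knockout array reached 1924. The corresponding sum of the 17 hepatocyte markers was 2532 on KO2, the lowest of the knockout arrays, whose highest was 3233, and wild-type arrays ran from 2607 to 3031. The 8 lymphocyte markers tested, of 10 listed, summed to 2.70 on KO2, the highest of all arrays, with wild-type arrays from 1.36 to 1.89 and the lowest knockout array at 1.22. Sums on KO2 were also the highest of all arrays for cholangiocyte markers, at 22.1 (wild type 6.33 to 10.1), and stellate cell markers, at 94.7 (wild type 70.2 to 89.6). They were the lowest for erythroid markers, at 35.0 (wild type 56.5 to 78.7), and for all tested genes, at 123883 (wild type 134516 to 140938). Sums are weighted to bright genes, and the medians relative to each gene's mean went otherwise for cholangiocyte and erythroid markers. The median over the 6 cholangiocyte markers on KO2 was -0.18, the lowest of the knockout arrays. That over the 3 erythroid markers on KO2 was -0.12, within the wild-type range of -0.20 to 0.61. Of the 14 endothelial markers 3 rose (Flt4, Dnase1l3 and Fcgr2b), where 2.44% of all tested genes rose. Of these 14, 13 had a positive difference and 1 a negative one (-0.51), with a median of 0.40. The sum of the 14 ran from 47.8 to 71.4 in knockout and from 31.3 to 43.3 in wild type. Of the 14 macrophage markers 2 rose (Fcgr3 and Cd163). Of these 14, 10 had a positive difference and 4 a negative one, from -1.08 to 0.91, with a median of 0.35. The sum of the 14 ran from 66.3 to 164.2 in knockout and from 71.7 to 148.3 in wild type. Without KO2 Fcgr2b and Fcgr3 missed the threshold (limma adjusted p = 0.069 and 0.0665) with differences about as large, 0.66 against 0.74 and 0.79 against 0.81. With each array left out in turn, the call held in 7 of 10 fits for Dnase1l3, 5 for Flt4 and 3 for Cd163. It held in 1 for Fcgr2b and in 1 for Fcgr3. The part of signal from these cell types in the complex I values was not tested. Of the 12 stellate, 6 cholangiocyte and 3 erythroid markers tested 0 passed limma's test, and of the 2 adipocyte markers tested, of 6 listed, Cfd fell. Of the 17 hepatocyte markers 11 had a negative difference and 6 a positive one, and 0 passed limma's test. Their median was -0.06, or -0.0011 without KO2. Of the 8 lymphocyte markers 4 were negative and 4 positive, and 0 passed, or 1 (Klrb1c, lower) without KO2.

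Promoters of the 2 genes that fell, and of Ndufs8, which had the largest positive difference, are shown to set their sequences side by side. Each is a stretch of 300 bases around the annotated start in RefSeq (GRCm38.p6), 5′ to 3′ on the strand of the gene, with matches to the motifs searched in capitals. Ndufb7 lies at chr8:83566508-83566807 on the plus strand, Ndufb3 at chr1:58586147-58586446 on the plus strand, and Ndufs8 at chr19:3912725-3913024 on the minus strand.
Ndufb7: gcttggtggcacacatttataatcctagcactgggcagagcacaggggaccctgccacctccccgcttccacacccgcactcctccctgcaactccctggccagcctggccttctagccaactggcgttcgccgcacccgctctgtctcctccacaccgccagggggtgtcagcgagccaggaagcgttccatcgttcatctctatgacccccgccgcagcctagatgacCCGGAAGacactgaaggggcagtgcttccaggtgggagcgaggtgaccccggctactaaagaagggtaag
Ndufb3: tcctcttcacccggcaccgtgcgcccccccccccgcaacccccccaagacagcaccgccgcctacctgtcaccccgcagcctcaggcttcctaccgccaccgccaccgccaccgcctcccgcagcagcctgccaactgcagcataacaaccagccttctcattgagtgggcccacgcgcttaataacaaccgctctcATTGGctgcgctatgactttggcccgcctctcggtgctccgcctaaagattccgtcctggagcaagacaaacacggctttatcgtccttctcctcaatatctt
Ndufs8: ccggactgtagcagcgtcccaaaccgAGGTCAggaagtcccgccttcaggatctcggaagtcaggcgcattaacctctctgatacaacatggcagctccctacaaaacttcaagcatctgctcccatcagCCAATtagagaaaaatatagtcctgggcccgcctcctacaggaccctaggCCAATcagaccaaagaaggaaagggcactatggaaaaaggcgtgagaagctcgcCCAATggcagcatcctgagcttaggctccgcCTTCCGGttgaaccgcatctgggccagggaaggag
The motif capitalised in Ndufb7 is CCGGAAG, the core letters bound by the ETS factor GABPA (also called NRF-2), from -20 to -14 relative to the start. The capitals in Ndufb3 are a CCAAT box read on the opposite strand, from -53 to -49. Ndufs8 held 3 CCAAT boxes, from -120 to -116, from -70 to -66 and from -16 to -12, a CCGGAAG on the opposite strand from 15 to 21, and a single AGGTCA from -224 to -219.

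RefSeq promoters were found for 33 of 37 genes, with 35 promoters in all, and were searched on both strands beside all 32851 promoters of the same length. CCGGAAG was in 5 of 35, or 14.3%, against 8.86% of all promoters. The palindromic motif of NRF1, a factor known for driving nuclear genes of the respiratory chain, searched as GCGCANGCGC, was in 8 of 35, or 22.9%, against 4.60%. AAGATGG, the core of the YY1 motif, was in 7 of 35, or 20%, against 6.34%. CCAAT was in 10 of 35, or 28.6%, against 37.4%. The hexamer AGGTCA was in 7 of 35, or 20%, against 16.3%. This hexamer repeated with 1 base between the copies was in 0 of 35 member promoters and in 13 of all promoters. TCAAGGTCA, the extended site of the estrogen-related receptors, which contains AGGTCA, was in 0 of 35 against 0.423%. A match is a description of these letters in this window.

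Core subunits as a group gave a median difference of -0.12, or -0.06 without KO2, and 5 of 7 were negative. None of the 7 passed limma's test (lowest adjusted p 0.167, for Ndufs1), and at 0 of 7 none was without overlap between the groups. The values of Ndufs1, the large iron-sulfur subunit at the tip of the matrix arm, were 5.17, 5.35, 5.04, 5.19 and 5.32 on WT1 to WT5 and 5.11, 4.69, 5.10, 4.98 and 4.95 on KO1 to KO5, as log2 signal relative to the array's 75th percentile, the scale used for every level below. The groups overlapped, since KO1 and KO3 were above WT3, and KO2 was the lowest array. The difference was -0.25 ± 0.10 (standard error, n = 5 and 5; limma adjusted p = 0.167), and -0.18 without KO2.

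Ndufv1, which holds the flavin that accepts electrons from NADH, differed by -0.13 ± 0.09 (limma adjusted p = 0.417), and by -0.06 without KO2. Ndufv2, its iron-sulfur partner, differed by 0.04 ± 0.10 (limma adjusted p = 0.853), and by 0.09 without KO2. Both sit at the start of the electron path, and for both the groups overlapped. Ndufs3, a scaffold of the ubiquinone-binding module, differed by -0.12 ± 0.07 (limma adjusted p = 0.312), and by -0.09 without KO2. Ndufs7, which lines the ubiquinone pocket, differed by -0.02 ± 0.06 (limma adjusted p = 0.877), and by -0.03 without KO2. It was flat, with wild-type arrays from 5.17 to 5.32 and knockout arrays from 5.14 to 5.31.

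Ndufs8, which carries the iron-sulfur clusters between the NADH module and the ubiquinone module, was the core subunit with the largest positive difference. Its values were 2.69, 2.68, 2.82, 2.62 and 2.68 on WT1 to WT5 and 2.99, 2.65, 2.997, 2.82 and 2.88 on KO1 to KO5. All knockout arrays other than KO2 lay at or above the highest wild-type array, WT3, and KO2 lay among the wild-type arrays. The difference was 0.17 ± 0.08 (limma adjusted p = 0.231) and 0.23 without KO2 (limma adjusted p = 0.0817). With normexp background correction and quantile normalisation Ndufs8 passed the test as higher, by 0.27 (limma adjusted p = 0.0258), whereas with median scaling its difference was 0.07 (limma adjusted p = 0.767).

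Among the accessory subunits 26 of 28 had a negative difference and the median was -0.13, or -0.07 without KO2. Ndufb7 and Ndufb3 fell, and both belong to the distal membrane arm. Ndufb7, on the intermembrane-space face of that arm, was 5.90, 5.84, 5.81, 5.76 and 5.87 on WT1 to WT5 and 5.27, 5.36, 5.54, 5.42 and 5.57 on KO1 to KO5. Every knockout array lay below every wild-type array, and KO2 lay within the range of the other knockout arrays. The difference was -0.41 ± 0.07, which is 1.33-fold lower (n = 5 and 5; limma adjusted p = 0.0157), and -0.39 without KO2 (limma adjusted p = 0.0211). Its single probe lies on chromosome 8 from 82149973 to 82150032 on the plus strand (mm7, as the files give it). The call held when each array was left out in turn, with a highest adjusted p of 0.0494. Within slide 2, where WT5 faced KO1 to KO3, the difference was -0.49 (limma adjusted p = 0.999 on those 4 arrays), and with slide as a fixed term the adjusted p was 0.334.

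Ndufb3, a small subunit that spans the membrane in the distal arm, was 5.36, 5.40, 5.38, 5.42 and 5.51 on WT1 to WT5 and 5.25, 5.09, 5.11, 5.17 and 5.17 on KO1 to KO5. The groups did not overlap, and KO2 was the lowest array by a small margin. The difference was -0.26 ± 0.06, which is 1.19-fold lower (n = 5 and 5; limma adjusted p = 0.0363), and -0.24 without KO2 (limma adjusted p = 0.0445). Its single probe lies on chromosome 1 from 58846867 to 58846926 on the plus strand (mm7). Leaving out any of WT1 to WT5, KO3, KO4 or KO5 ended the call, with adjusted p from 0.0611 to 0.0926, and within slide 2 the difference was -0.36 (limma adjusted p = 0.999 on those 4 arrays; 0.405 with slide as a fixed term).

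**Figure D3:**
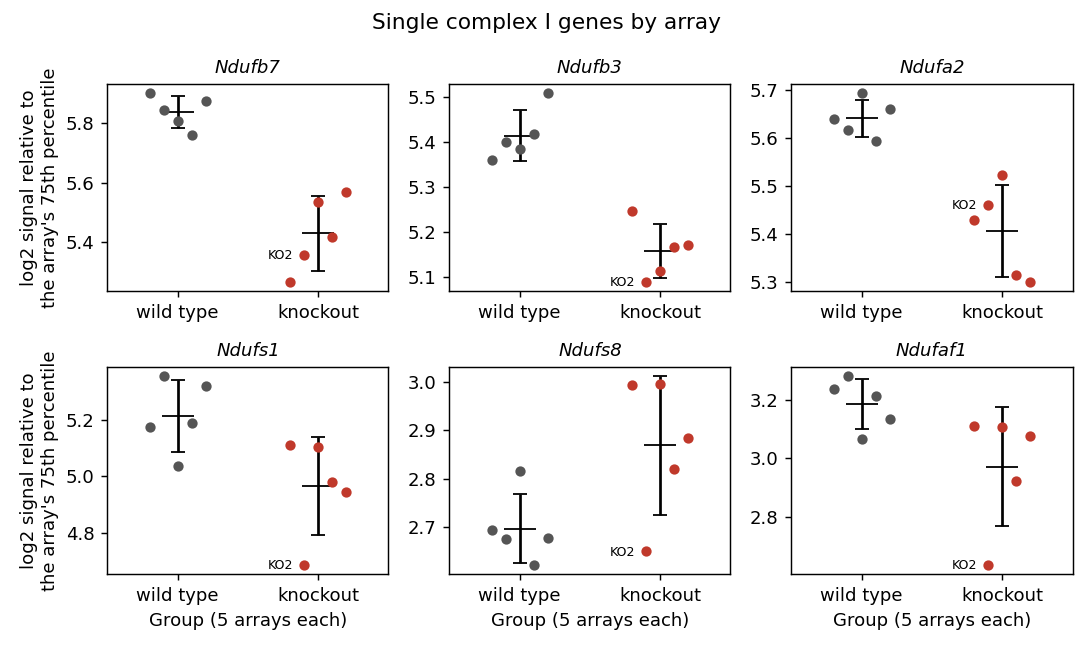
Log2 signal relative to each array's 75th percentile for 6 complex I genes, with 1 point per array, group means (horizontal marks) and standard deviations (bars), and a separate vertical scale in each panel. Wild-type and knockout points do not overlap for Ndufb7, Ndufb3 and Ndufa2, and do overlap for Ndufs1, Ndufs8 and Ndufaf1, where KO2 is the lowest knockout array.

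In 5 of 37 genes, or 13.5%, the highest knockout array was still below the lowest wild-type array, against 5.43% of all tested genes, and in 0 of 37 was the order the opposite one, against 4.18%. Without KO2 the count was 5 of 37 against 6.54% of all tested genes. The 5 genes over all arrays were Ndufb7, Ndufb3, Ndufa2, Ndufs5 and Ndufa9, and Ndufa9 is named after its values were seen. Ndufa2, a small subunit with a thioredoxin fold in the NADH module, was 5.64, 5.62, 5.69, 5.59 and 5.66 on WT1 to WT5 and 5.43, 5.46, 5.52, 5.32 and 5.30 on KO1 to KO5. KO2 was not its lowest array. The difference was -0.23 ± 0.06 (limma adjusted p = 0.0635) and -0.25 without KO2 (limma adjusted p = 0.057), and it passed the test with slide as a random block, with array weights, with a trended robust prior and without KO3 (limma adjusted p = 0.0448, 0.0338, 0.0353 and 0.05). It did not pass with slide as a fixed term (0.666), with quantile normalisation (0.242), or without any 1 of the wild-type arrays (0.107 to 0.132).

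Ndufs5, on the intermembrane-space side of the proximal membrane arm, was 6.86, 6.89, 6.79, 6.78 and 6.97 on WT1 to WT5 and 6.65, 6.36, 6.74, 6.74 and 6.71 on KO1 to KO5. The groups did not overlap, but KO2 lay well below the other knockout arrays. The difference was -0.22 ± 0.09 (limma adjusted p = 0.172), and -0.15 without KO2. Ndufa9, a subunit of the matrix arm that binds NADPH, had very tight wild-type values, from 5.79 to 5.83. Its knockout values were 5.72, 5.38, 5.77, 5.78 and 5.67 on KO1 to KO5, so that KO3 and KO4 lay just below the lowest wild-type array and KO2 far below it. The difference was -0.14 ± 0.08 (limma adjusted p = 0.33), and -0.07 without KO2.

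Ndufa10, a kinase-like subunit on the matrix side of the membrane arm, had wild-type values from 4.03 to 4.24 and knockout values of 4.05, 3.33, 3.95, 3.99 and 3.91 on KO1 to KO5. KO2 was far the lowest, and KO1 lay among the wild-type arrays. The difference of -0.28 ± 0.13 (limma adjusted p = 0.225) became -0.15 without KO2, so this array moved the value by more than 1.5 times. Ndufab1, the mitochondrial acyl carrier protein, which serves fatty acid synthesis as well as complex I, differed by -0.21 ± 0.10 (limma adjusted p = 0.23), and by -0.17 without KO2. These values are from its brightest probe, and its further kept probes differed by -0.07 and -0.10. Ndufa5, a matrix-arm subunit, differed by -0.19 ± 0.08 (limma adjusted p = 0.199), and by -0.14 without KO2. Ndufa13, also known as GRIM-19, differed by -0.16 ± 0.07 (limma adjusted p = 0.225), and by -0.12 without KO2. Ndufs6, the zinc-binding subunit of the NADH module, differed by 0.04 ± 0.09 (limma adjusted p = 0.806) and by 0.12 without KO2, on which it was 5.52 while the other knockout arrays ran from 5.85 to 5.94. The remaining 18 accessory subunits differed by -0.15 (Ndufb8) to 0.03 (Ndufb6), 17 of them negative, with a lowest adjusted p of 0.231 (Ndufa3). These too are values of the brightest probes, and the further kept probe of Ndufb8 differed by -0.24 (limma adjusted p = 0.18 over probes).

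By position in the enzyme, the 15 matrix-arm subunits had a median difference of -0.12 with 12 negative and 0 called (5 of all 37 members lay wholly below wild type, 2 of them here). The 9 subunits of the proximal membrane arm had a median of -0.13 and all were negative, with 0 called by limma. The 10 subunits of the distal membrane arm had a median of -0.07, with 9 negative. They included the 2 genes that fell, where 3.49% of all tested genes fell. The arms shared the KO2 shift, at -0.27, -0.26 and -0.28 relative to each gene's mean. Without KO2 the medians were -0.06, -0.10 and -0.02 in that order. Differences between the arms were not tested.

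Ndufaf1, which helps build the membrane arm, was the single assembly factor named in the files. Its values were 3.24, 3.28, 3.07, 3.21 and 3.13 on WT1 to WT5 and 3.11, 2.64, 3.11, 2.92 and 3.08 on KO1 to KO5. The groups overlapped at WT3, and KO2 was the lowest. The difference was -0.22 ± 0.10 (limma adjusted p = 0.227) and -0.13 without KO2. Ndufa4 differed by -0.12 ± 0.07 (limma adjusted p = 0.339), and by -0.09 without KO2.

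A further 7 genes, which carry Nduf symbols now but clone names in the files, were not members: Ndufv3 and the assembly factors Ndufaf2 to Ndufaf7. Their differences were all negative and small, with a median of -0.03, and 0 passed limma's test. Without KO2 the median was 0.0044 and 4 of the 7 were positive (Ndufaf3, Ndufaf5, Ndufaf6 and Ndufv3). Ndufaf7, a methyltransferase that acts during assembly, differed by -0.16 ± 0.11 (limma adjusted p = 0.394), and by -0.09 without KO2. Ndufaf2 differed by -0.13 ± 0.10 (limma adjusted p = 0.482), and by -0.04 without KO2. Ndufv3 differed by -0.00039 ± 0.15 (limma adjusted p = 0.999), or 0.07 without KO2, and its 3 kept probes disagreed in sign at sizes near 0. Of 12 complex I factors with other names 11 were tested, 8 were negative and 0 passed limma's test, with a median of -0.08, or -0.01 without KO2. The lowest adjusted p among them was that of Acad9, a partner of Ndufaf1 in assembly, at -0.48 ± 0.15 (limma adjusted p = 0.089), or -0.35 without KO2. The 7 subunits encoded in mitochondrial DNA were not analysed here.

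The other nuclear genes of the respiratory chain are given for comparison. Of 44 genes of complexes II to V tested, 37 were negative, the median was -0.11, or -0.05 without KO2, and their median on KO2 relative to each gene's mean was -0.26. Cox8b and Cox7a1, isoforms of complex IV subunits typical of muscle and brown fat, fell, and 0 rose. These are 2 of 44 genes, where 3.49% of all tested genes fell. Cox8b was well above background on 0 of the knockout arrays and was at least 2.83-fold lower (limma adjusted p = 0.0136). Cox7a1 differed by -0.73 ± 0.14 (limma adjusted p = 0.021). Mitochondrial ribosomal protein genes were taken by their Mrpl or Mrps symbol alone, whatever the role of the product. Of these 78 genes 54 were negative, with a median difference of -0.06, or -0.02 without KO2. Their median on KO2 was -0.17 relative to each gene's mean. Mrps36 fell, by 0.41 ± 0.10 (limma adjusted p = 0.0367), and Mrpl20 rose, by 0.34 ± 0.07 (limma adjusted p = 0.021). With each array left out in turn, the call held in 10 of 10 fits for Cox8b, 8 for Cox7a1, 7 for Mrpl20 and 1 for Mrps36. Mrps36 was at -0.36 without KO2 (limma adjusted p = 0.0508). All these fits kept the same background filter, which Cox8b passed through the wild-type arrays alone. Complex I was not tested against these lists.

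Of 13 regulators of mitochondrial gene expression Ppara, the fatty-acid-sensing receptor that drives hepatic fat oxidation, fell, with a difference of -0.60 ± 0.15 (limma adjusted p = 0.0483), and the list's median was -0.01, or 0.03 without KO2. Of 21 genes of mitochondrial import, chaperones and structure 2 fell, where 3.49% of all tested genes fell. The median of these 21 was -0.05, or -0.02 without KO2. Mfn2, which fuses outer membranes, differed by -0.53 ± 0.07 (limma adjusted p = 0.0044). Immt, which shapes the cristae in which complex I sits, differed by -0.34 ± 0.07 (limma adjusted p = 0.0223). With each array left out in turn, the call held in 10 of 10 fits for Mfn2, 6 for Immt and 2 for Ppara.

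The sign of the members' median did not depend on the scaling, but its size did. Without scaling between arrays the median was -0.02 for the members and 0.12 for all tested genes, and 22 of 37 members were negative. With each array's median subtracted instead, the values were -0.23 and -0.09, and 36 of 37 were negative. The median of the members minus that of all tested genes was -0.14 with the 75th percentile, a value that other constants per array leave nearly as it is. It was -0.09 with normexp and quantile normalisation, -0.30 with normexp and the 75th percentile and -0.24 with no filter on dim probes. Over all tested genes the share of higher among called genes was 41.1% with the 75th percentile, 66.5% without scaling, 21.4% with the median and 22.6% with normexp and the 75th percentile. Ndufb7 and Ndufb3 were lower under every scaling run, with differences of -0.30 and -0.15 without any, but they were not called under each. For Ndufb7 the limma adjusted p was 0.151 without scaling, 0.173 with normexp and the 75th percentile and 0.0744 with no filter on dim probes. For Ndufb3 it was 0.55, 0.293 and 0.174 under these, 0.0591 with median scaling and 0.0764 with normexp and quantile normalisation.

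**Figure D4:**
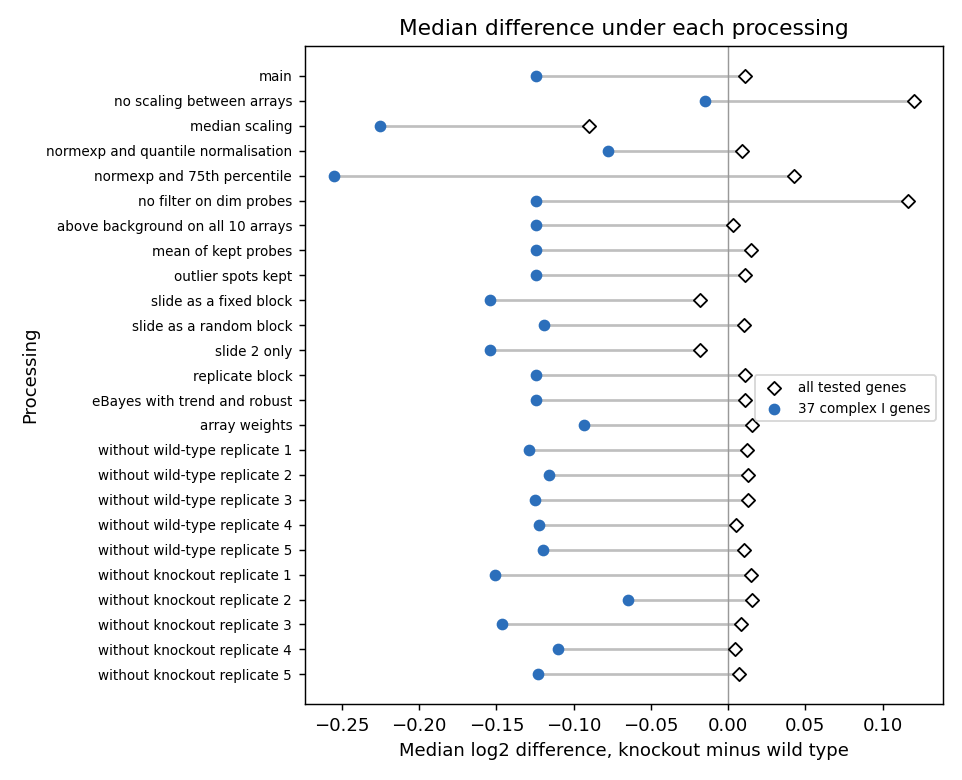
Median log2 difference, knockout minus wild type, of the 37 complex I genes (filled) and of all tested genes (open) under each processing named on the vertical axis. The members' median lies left of that of all tested genes under each, from -0.02 without scaling to -0.26 with normexp and the 75th percentile, and is -0.06 without knockout replicate 2 (KO2).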

How the data were processed

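Per the file headers, the authors quantified the scans in Agilent Feature Extraction (9.5.1.1), and its deposited processed intensity is background-subtracted within an array and not normalised between arrays. A deposited table of the series repeats these intensity values exactly (difference 0). Probe coordinates are in mm7, per the file headers.

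Each intensity was converted to log2, without a pseudocount, and the array's 75th percentile was subtracted. Spots with outlier flags were left out. A probe was kept if 4 of the 5 arrays of either group showed it well above background (23263 of 41174 probes). Gene symbols were updated through RefSeq (23075 probes by accession, 6587 by symbol, 3072 by older symbol, 8440 kept as filed). A gene was represented by its brightest kept probe, whose sign 11 of 11 further kept probes of the members shared. Genotype was tested with limma (3.58.1, R 4.3.3) by lmFit and eBayes, two-sided, with Benjamini-Hochberg adjustment over 15805 genes. The fit was also run on simulated arrays with independent values and no slide effect. Unlike these arrays, they held no overlap of slide and genotype, so they do not test the calls made here.

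Members, roles and lists were chosen with earlier results of these data known. Genes named were those called, the core subunits (1 member is not reported here singly and is kept in counts and medians), the accessory and assembly genes with the smallest p, the largest positive differences, genes whose probes disagreed, and up to 3 per pathway list. No pairing by replicate number was visible, with same-number correlations of deviations from -0.21 to 0.04. Alternatives covered scaling, background correction, filtering, slide, array weights and each array left out.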

Additional observations from a re-analysis of the deposited data

Results flagged for a closer look

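Groups of values, each from arrays of 1 genotype, were examined by Dixon's ratio, the gap to the nearest array over the whole range. Of 54 groups 7 held an array far from the other 4. All 7 were knockout groups, so the share among knockout groups alone is higher, and the array was KO2 each time. Chance marks about 1 in 20 groups, and these groups share arrays and genes. For the median shift of all complex I genes the ratio was 0.754, with KO2 at -0.27. For the accessory subunits it was 0.780, with KO2 at -0.27, and for the distal membrane arm 0.769, with KO2 at -0.28. Among single genes the ratio was 0.803 for Ndufa10, with KO2 at 3.33, 0.799 for Ndufs6, at 5.52, and 0.760 for Ndufs5, at 6.36. For Ndufv3, which is not a member, it was 0.850, with KO2 at 4.45.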

How the results depend on the processing

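Of the 37 complex I genes 2 were called. The count was 0 without scaling between arrays, with normexp and the 75th percentile, with no filter on dim probes, with slide as a fixed block, within slide 2 and with the replicate number as a block, 1 with median scaling, and from 1 to 2 when 1 array was left out. Ndufs8 and Ndufb7 were the 2 called with normexp and quantile normalisation. The count was 3 with slide as a random block, with array weights and with a trended robust prior, where Ndufa2 was called as well. The fixed slide block and the fit within slide 2 rest on the same comparison, WT5 against KO1 to KO3, and are not separate checks. Fewer arrays were compared there, and the cause of the other changes was not tested. Over all tested genes 936 were called, 472 without scaling, 93 with normexp and the 75th percentile, 247 with no filter, 35 with slide as a fixed block, 2 within slide 2, 167 with the replicate block, 1451 with slide as a random block and from 297 to 1190 when 1 array was left out. The members' median difference of -0.12 became -0.015 without scaling, -0.23 with median scaling and -0.26 with normexp and the 75th percentile, and ran from -0.15 to -0.06 when 1 array was left out. The per-array shift of -0.11 between group means became -0.00598, -0.22 and -0.25 under those settings, and ran from -0.14 to -0.06 when 1 array was left out. Of the other pathway genes 7 were called, 1 without scaling, 0 with normexp and the 75th percentile, 2 with no filter, 0 with slide as a fixed block, 0 within slide 2, 1 with the replicate block, and from 2 to 9 when 1 array was left out. With the replicate block the limma adjusted p was 0.0968 for Ndufb7 and 0.159 for Ndufb3. No pairing by replicate number was visible, and 0 of 5 wild-type arrays correlated best with their own number. These correlations cannot exclude a pairing. In the fits that left out 1 array, 29 members were negative in all 10, 2 were positive in all 10 and 6 changed sign. Differences near the median standard error of 0.08 could not be told from 0 with 5 arrays a group.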
